A study of Mus musculus with 5 samples.

Results

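The genes described here are 10 transcription factors of blood stem cells, namely Gata2, Runx1, Hlf, Mecom, Tal1, Lmo2, Erg, Fli1, Gfi1b and Lyl1. They were taken by symbol from a list of hematopoietic stem cell (HSC) regulators, and make up 10 of the 24046 genes of the deposited table. All 10 passed the filter on low values and stood among the 13661 genes tested. The study asked how loss of SYNCRIP, an RNA-binding protein, alters the transcriptome of HSCs, and measured it by bulk RNA-seq of sorted mouse cells. WT denotes the genotype Syncrip flox/flox, Mx1 Cre- (3 libraries, WT 1 to WT 3) and KO denotes Syncrip flox/flox, Mx1 Cre+ (2 libraries, KO 2 and KO 3). Both groups carried the floxed alleles, both came from young adult donors whose whole marrow was transplanted into lethally irradiated congenic CD45.1 female recipients of the B6SJL strain, and both received polyinosinic:polycytidylic acid (pIpC). This interferon inducer switches on Cre from the Mx1 promoter, which is active in many interferon-responsive cells besides HSCs. At harvest, 9 weeks had passed since transplantation and 3 weeks since pIpC, and cells were sorted in the donor-derived (CD45.2+) Lin-, Sca1+, cKit+, CD150+, CD48- gate. Only donor-derived cells were sorted. The labels do not tie the libraries of a group to separate recipients, so the p-values measure the spread between these libraries, which may be in part technical.

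Stem cell transcription factors switch on the genes that keep HSCs multipotent and hold back programs of mature cells. A group of 7 of them (Gata2, Runx1, Tal1, Lmo2, Erg, Fli1 and Lyl1) is known to occupy shared enhancers in blood stem and progenitor cells and is often called the heptad. GATA2 binds DNA through zinc fingers, TAL1 and LYL1 are related basic helix-loop-helix proteins, LMO2 is an adaptor with no DNA contact of its own that bridges them, RUNX1 binds with its partner CBFB, and ERG and FLI1 are related ETS proteins. HLF and MECOM (whose products include EVI1) mark the most primitive HSCs, and GFI1B is a repressor needed for HSC quiescence and for erythroid and megakaryocyte cells.

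The libraries held 12539599 to 22779536 reads assigned to genes, with the lowest total in KO 3 and the next lowest in KO 2 (18308876). The lowest read count of any of the 10 factors was 313, for Erg in WT 3. Syncrip (chromosome 9, 88447009 to 88482574, minus strand, GRCm38) read 1944, 1440 and 1794 (normalized read counts, in the order WT 1, WT 2, WT 3) against 294 in KO 2 and 343 in KO 3. Its log2 fold change came to -2.43 (SE 0.22, limma adjusted p = 0.0352), and it was the only gene of the 13661 with an adjusted p under 0.05 (0.00732%). The 6 markers of the gate were present in every library, among them Kit (8007 to 10741) and Slamf1, which encodes CD150 (195 to 522). Ptprc, the gene of CD45, was lower in both KO libraries, with 4635, 3735 and 4549.5 in WT, 2009.6 in KO 2 and 1271 in KO 3 (-1.42, SE 0.23, limma adjusted p = 0.0815, DESeq2 adjusted p = 1.8e-05). Transcripts of neutrophil granules were abundant despite the gate: the 9 neutrophil and myeloid markers took 5.77% to 6.90% of reads in WT libraries, 5.15% in KO 2 and 2.52% in KO 3, and none of the 9 was at 0. Cd48, whose protein the gate excludes, read 601 to 768 in WT, 459 in KO 2 and 191 in KO 3. KO 2 also held adipocyte transcripts, with 0.123% of reads on 8 markers against at most 0.00103% in any other library. The part of these other transcripts in the differences below was not tested.

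Every factor had a higher mean in KO than in WT, but none passed the test across all genes. The log2 fold change was above 0 for 10 of 10 factors (51.1% of all tested genes), with a median of 0.53 against 0.02 over all tested genes (0.14 from KO 2 alone and 0.95 from KO 3 alone). By limma, 0 of 10 had an adjusted p under 0.05. At an unadjusted p under 0.05, 3 were higher in KO (Gata2, Tal1 and Lyl1) and 0 lower, against a background of 13.3% of tested genes higher and 14.5% lower. In 4 factors (Gata2, Tal1, Gfi1b and Lyl1) both KO values lay above all WT values, which held for 23.9% of tested genes, and in 0 did both lie below, which held for 23.2%. edgeR on reads recovered from the table called 0 of the 10 (0.0146% of tested genes), whereas DESeq2 on the same reads called 2, Gata2 and Lyl1, both higher (9.27% of genes higher and 9.46% lower). In bulk samples, fewer cells of a type and less RNA per cell cannot be told apart.

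**Figure D1:**
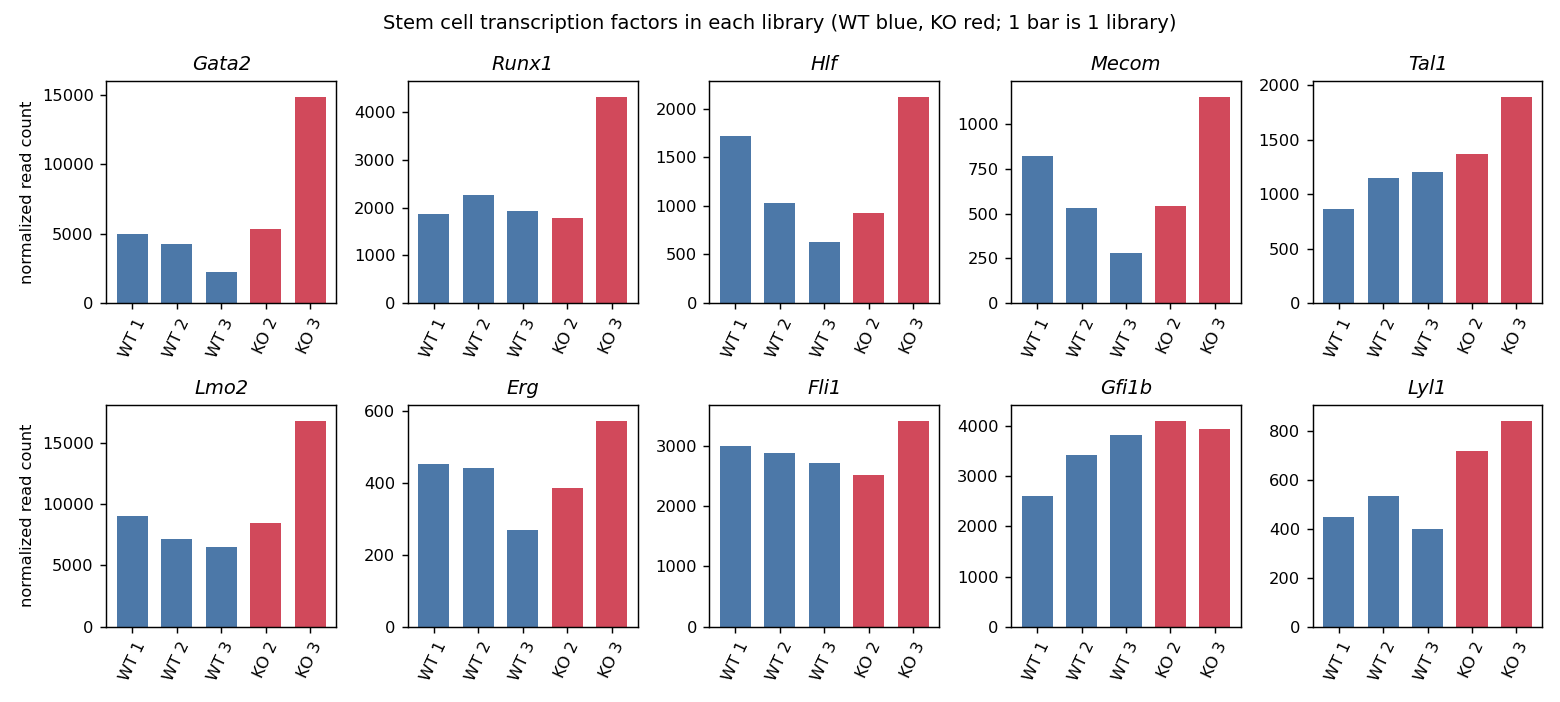
Normalized read count (y axis, linear from 0, scaled separately in each panel) of the 10 factors in each library, with WT in blue and KO in red and 1 bar per library. KO 3 is the highest bar for 9 factors, and Gfi1b is highest in KO 2 (4087).

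Gata2, the zinc finger factor that HSCs need to emerge and to persist, had the highest log2 fold change of the 10 as deposited, but not without KO 3, where Lyl1 was higher, nor after correction for GC content and length, where Mecom, Hlf and Runx1 were. It lies on chromosome 6 (88193891 to 88207032, plus strand, GRCm38). It read 4973, 4261 and 2269 (normalized read counts, in the order WT 1, WT 2, WT 3, which holds for every factor below) against 5333 in KO 2 and 14815 in KO 3. Both KO libraries lay above all WT libraries, KO 2 narrowly and KO 3 by a wide margin. The means were 3835 ± 1402 (SD, n = 3) in WT and 10074 ± 6705 (SD, n = 2) in KO, and the log2 fold change came to 1.29 (SE 0.45, 95% confidence interval 0.26 to 2.31, limma adjusted p = 0.118). DESeq2 gave 1.39 with an adjusted p of 0.0141, and edgeR an adjusted p of 0.115. The difference from the WT mean was 0.55 in KO 2 and 2.03 in KO 3 on the log2 scale. Gata1, the paralog that replaces GATA2 on chromatin as erythroid cells mature, read 2589.9, 3311 and 3442 in WT, with KO 2 at 3134 and KO 3 at 2819 inside that range. The ratio of Gata2 to Gata1 reads within a library was therefore 1.92, 1.29 and 0.659 in WT, 1.70 in KO 2 and 5.26 in KO 3. By this ratio KO 2 lay inside the WT range and KO 3 far above it.

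Tal1 and Lyl1, the related helix-loop-helix factors, both had KO values above all WT values, and KO 2 and KO 3 lay within 1.38-fold of each other for both. Tal1 (chromosome 4, 115056426 to 115071755, plus strand) read 867, 1145 and 1203 in WT and 1366 and 1888 in KO. Its log2 fold change came to 0.60 (SE 0.23, 95% confidence interval 0.06 to 1.13, limma adjusted p = 0.146). Lyl1 (chromosome 8, 84701457 to 84704715, plus strand) read 447, 535 and 400.2 in WT and 719.6 and 839.8 in KO. With means of 461 ± 68.2 (SD, n = 3) and 779.7 ± 85.1 (SD, n = 2), its log2 fold change came to 0.76 (SE 0.24, 95% confidence interval 0.22 to 1.30, limma adjusted p = 0.0995), the lowest adjusted p of the 10. DESeq2 gave an adjusted p of 0.0271 for Lyl1 and 0.0871 for Tal1. After correction for GC content and length, described below, the value of Lyl1 turned to -0.14 (limma adjusted p = 0.736) and that of Tal1 was 0.38. Per kilobase of transcript, Lyl1 and Tal1 stood at a ratio of 1.21, 1.09 and 0.779 in WT, 1.23 in KO 2 and 1.04 in KO 3. Only 4 exon bases of Lyl1 (0.222%) overlap an exon of Nfix on the opposite strand.

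Lmo2, the adaptor that joins TAL1 or LYL1 to GATA2, was the most abundant of the 10. It lies on chromosome 2 (103957986 to 103981878, plus strand). Its normalized read counts were 9066, 7196 and 6537 in WT and 8431 and 16766 in KO, so that KO 2 lay inside the WT range and KO 3 above it. Its log2 fold change came to 0.66 (SE 0.29, limma adjusted p = 0.181), and the 95% confidence interval reached from -0.0028 to 1.32.

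Runx1, the runt domain factor required for the first HSCs, followed the same split between the KO libraries. It lies on chromosome 16 (92601466 to 92826149, minus strand), where 0.881% of its exon bases overlap an antisense gene, Gm26626. It read 1866, 2265 and 1923 in WT, 1774 in KO 2 and 4307 in KO 3. KO 2 was below all WT libraries and KO 3 above them. Its log2 fold change came to 0.46 (SE 0.33, 95% confidence interval -0.30 to 1.22, limma adjusted p = 0.391).

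The ETS factors Erg and Fli1 showed small differences. Erg (chromosome 16, 95359169 to 95586593, minus strand) read 452, 442 and 268 in WT and 388 and 573 in KO. Fli1 (chromosome 9, 32422204 to 32542861, minus strand) read 2989, 2884 and 2705 in WT and 2514 and 3403 in KO. For Erg, KO 2 lay inside the WT range, while for Fli1 it lay below it, and for both KO 3 was the highest library. The log2 fold change came to 0.32 (SE 0.32, 95% confidence interval -0.42 to 1.06, limma adjusted p = 0.537) for Erg. It was 0.03 (SE 0.19, 95% confidence interval -0.40 to 0.47, limma adjusted p = 0.919) for Fli1. The ratio of Erg to Fli1 per kilobase of transcript was 0.154, 0.156 and 0.101 in WT, 0.157 in KO 2 and 0.172 in KO 3.

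Hlf and Mecom, which mark the most primitive HSCs, differed more among WT libraries than most genes did. Hlf, a PAR-domain leucine zipper factor (chromosome 11, 90336536 to 90390895, minus strand), read 1719, 1028 and 631 in WT, 924 in KO 2 and 2114 in KO 3. Mecom, a zinc finger factor (chromosome 3, 29951296 to 30548008, minus strand, with 0.652% of exon bases shared with the antisense gene Mecomos), read 821, 534 and 279 in WT, 542 in KO 2 and 1151 in KO 3. In both genes KO 2 lay inside the WT range and KO 3 above it. The log2 fold change came to 0.43 (SE 0.45, 95% confidence interval -0.60 to 1.46, limma adjusted p = 0.554) for Hlf. For Mecom it was 0.67 (SE 0.47, 95% confidence interval -0.41 to 1.74, limma adjusted p = 0.376). Without WT 3, the lowest WT library for both, the values were 0.07 for Hlf and 0.25 for Mecom, and without WT 1, the highest, 0.79 and 1.03.

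Gfi1b, the repressor (chromosome 2, 28609450 to 28621982, minus strand), read 2607, 3409.9 and 3809 in WT and 4087 and 3930.4 in KO. Both KO libraries lay above all WT libraries by small margins, and it was the only factor of the 10 not highest in KO 3. Its log2 fold change came to 0.31 (SE 0.20, 95% confidence interval -0.15 to 0.77, limma adjusted p = 0.337). After correction for GC content and length, described below, the value of Gfi1b turned to -0.22 (limma adjusted p = 0.561). Its KO values then no longer lay above all WT values. Gfi1, its paralog in myeloid cells and HSCs, read 1884 to 2656 in WT, 2617 in KO 2 and 1575 in KO 3. The ratio of Gfi1b to Gfi1 reads was 1.28 to 1.63 in WT, 1.56 in KO 2 and 2.50 in KO 3.

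The values of the 2 KO libraries stood apart for most of the factors. On the log2 scale, the median difference from the WT mean was 0.14 in KO 2 and 0.95 in KO 3, where that of all tested genes was 0.01 and 0.02. KO 3 lay above all WT libraries for 10 of 10 factors (40.0% of tested genes) and KO 2 for 4 (32.8%). KO 3 was the highest of the 5 libraries for 9 factors (35.0%). It was at least 2-fold above the WT mean for 5 factors, Gata2, Runx1, Hlf, Mecom and Lmo2 (16.1% of tested genes), and KO 2 for 0 (6.55%). The 10 factors together took 0.141%, 0.126% and 0.103% of reads in WT 1, WT 2 and WT 3, 0.139% in KO 2 and 0.261% in KO 3. Over the 10 factors, the root mean square distance between log2 values was 0.26 from KO 2 to WT 2, less than any distance between WT libraries (0.39 to 0.84), while KO 3 stood 0.87 to 1.43 from the WT libraries. Over all tested genes KO 3 was also the farthest, at 1.15 to 1.39 from the WT libraries, against 0.88 to 1.06 for KO 2 and 0.82 to 0.92 among WT. Without KO 2, the log2 fold change was 2.03 for Gata2, 1.10 for Runx1 and 1.16 for Lmo2. The median of the 10 was then 0.95, and without KO 3 it was 0.14. A lone KO library has no spread of its own, so only effect sizes are given for these fits.

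**Figure D2:**
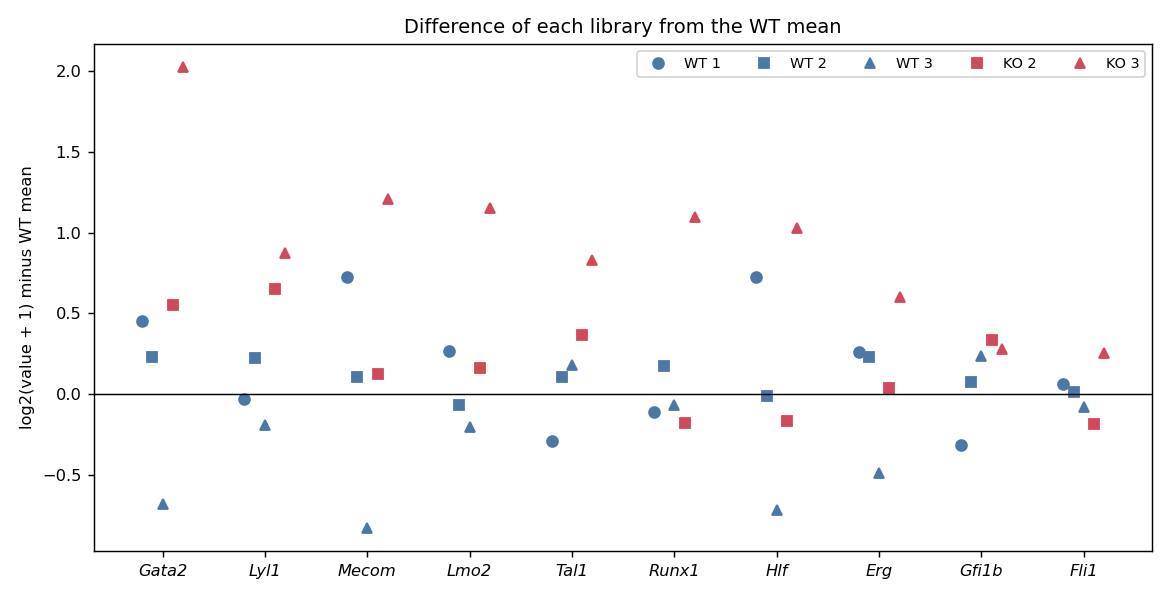
Difference of each library from the WT mean in log2(value + 1) (y axis) for the 10 factors (x axis), with a point per library, WT in blue and KO in red. KO 3 stands 0.25 to 2.03 above the WT mean, whereas KO 2 stands between -0.18 and 0.65.

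Markers of some other cell types lay outside the WT range in a KO library. The 7 megakaryocyte markers, of which 3 (Itga2b, Pf4 and Gp9) are also on the list of known targets of these factors, took 0.0304% to 0.0506% of reads in WT, 0.0546% in KO 2 and 0.135% in KO 3, and 5 of the 7 had both KO values above all WT values (23.9% of tested genes). Their median log2 fold change was 1.23, and 0.47 after correction for GC content and length, and DESeq2 called 4 of the 7 higher (9.27%). The 8 erythroid markers took 0.138% to 0.195% in WT, 0.144% in KO 2 and 0.1003% in KO 3. That sum follows Car1 (15235, 17102 and 24050.2 in WT, 9703 in KO 2 and 5733 in KO 3), while 5 of the 8 had a log2 fold change above 0 (median 0.34), among them Klf1 (0.54, but -0.25 after correction for GC content and length) and Epor (0.59, but -0.10). The 7 mast cell and basophil markers took 0.0299% to 0.0394% in WT, 0.0199% in KO 2 and 0.0335% in KO 3. Here KO 2 lay below the WT range and KO 3 inside it, where the sum follows Prss34 (199.6 to 1808 in WT, 381 in KO 2 and 2974 in KO 3), while 6 of the 7 had a log2 fold change below 0 (median -0.61) and Cpa3, Ms4a2 and Hdc had both KO values below all WT values (23.2% of tested genes). DESeq2 called 3 of the 7 lower (9.46%). The 5 B cell markers took 0.0025% to 0.0033% in WT, 0.0025% in KO 2 and 0.0029% in KO 3. The 7 endothelial markers took 0.00921% to 0.0135% in WT, 0.0133% in KO 2 and 0.0215% in KO 3, with the endothelial cadherin gene Cdh5 at 0 in WT 1 and WT 3, at 32.1 in WT 2, at 54.5 in KO 2 and at 1.52 in KO 3. The sum in KO 3 follows Egfl7 (904 to 1194 in WT, 1308 in KO 2 and 2924 in KO 3), and the median difference of the 7 from the WT mean in KO 3 was -0.22 on the log2 scale. Their part in the differences of the 10 factors was not tested.

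Among the WT libraries, WT 1 gave the highest and WT 3 the lowest value for 6 factors, namely Gata2, Hlf, Mecom, Erg, Lmo2 and Fli1, with WT 2 between them (16.9% of tested genes). The spread of WT log2 values was wide for Mecom (SD 0.78, the 89.2nd percentile of tested genes), Hlf (0.72, the 87.9th percentile) and Gata2 (0.60, the 84.0th percentile), and narrow for Fli1 (0.07, the 7.73rd percentile). Procr, the gene of the HSC surface protein EPCR, read 439, 243 and 152 in WT 1, WT 2 and WT 3, in the same order as those factors, and 281 and 527 in KO 2 and KO 3. The neutrophil and myeloid markers took 5.77%, 6.41% and 6.90% of reads in WT 1, WT 2 and WT 3, in the opposite order as a sum, which only Ngp and Ltf of the 9 markers followed singly.

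Over the 5 libraries, 8 of the 10 factors fell into pairs in which each was the other's nearest, and Gata2 and Lyl1 did not. Likeness was the root mean square distance between log2(value + 1) profiles, each centred on its own mean. Hlf and Mecom were nearest to each other at 0.14, the shortest distance of all, then Tal1 and Gfi1b (0.22), Lmo2 and Runx1 (0.25), and Erg and Fli1 (0.27). Lyl1 was nearest to Tal1 (0.24) and Gata2 to Mecom (0.36). The longest distance was that of Gata2 and Gfi1b (0.87). Among all other tested genes, the profiles nearest to the mean of the 10 were 1700052K11Rik (0.046), Ccdc166 (0.052) and Zfp707 (0.052). These distances describe 5 libraries and carry no test.

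Levels of different genes were compared as normalized reads per kilobase of the longest transcript. Lmo2 stood highest in WT at 4455 ± 769 (SD, n = 3), with 4942 in KO 2 and 9828 in KO 3. Gfi1b followed at 1798 ± 336, then Gata2 at 1074 ± 393 and Fli1 at 862 ± 43.2. The WT ranges of Lmo2 and Gfi1b did not overlap, whereas Gfi1b and Gata2 differed by less than the sum of their SDs and the ranges of Gata2 and Fli1 overlapped. Runx1 (344 ± 36.9) lay below Fli1 and above Lyl1 (256 ± 37.9) with no overlap of the WT ranges. Lyl1, Tal1 (254 ± 42.6), Hlf (199.6 ± 97.6), Erg (119 ± 31.8) and Mecom (95.7 ± 47.6) each overlapped the next in WT. In KO 3, Gata2 reached 4149 reads per kilobase and passed Gfi1b, which read 2157.

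**Figure D3:**
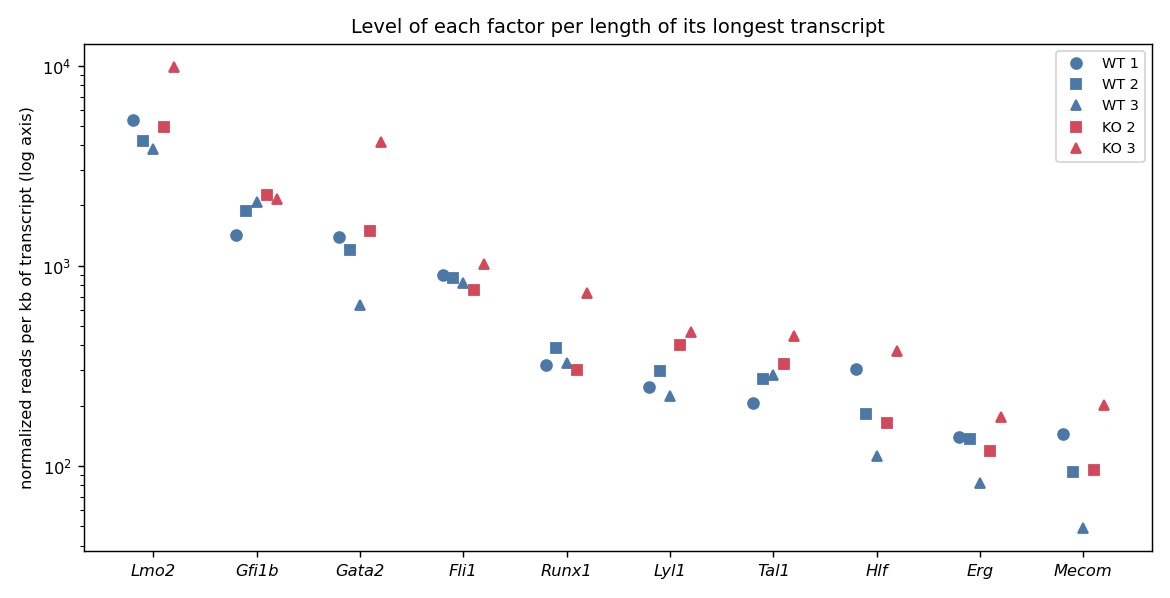
Normalized reads per kilobase of the longest transcript (y axis, log scale) of the 10 factors (x axis, in order of the WT mean), with a point per library, WT in blue and KO in red. Lmo2 lies highest in every library, and in KO 3 the level of Gata2 (4149) is second.

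GC content moved with the fold change across the whole table. The median log2 fold change of tested genes ran from -0.76 in the lowest of 10 equal bins of GC content (median 39.8%) to 0.73 in the highest bin (median 59.9%), and from -0.99 to 1.02 in KO 3 alone. Lyl1 (GC content 62.6%, the 98.5th percentile), Gata2 (58.2%) and Gfi1b (57.5%) are GC-rich, while Fli1 (44.5%), Hlf (45.1%), Mecom (45.5%) and Runx1 (46.4%) lie below the median of 49.9%. Once a linear trend on GC content and transcript length was taken out of each library, the log2 fold change of Lyl1 became -0.14 (SE 0.20, limma adjusted p = 0.736) and that of Gfi1b -0.22 (SE 0.19, limma adjusted p = 0.561), so that both changed sign. Gata2 stood at 0.68 (SE 0.38, limma adjusted p = 0.379). Mecom (0.97), Hlf (0.75), Runx1 (0.69) and Fli1 (0.42) had higher values than before. The median of the 10 was then 0.40 against -0.02 for all genes, 8 of 10 were above 0, 0 had an adjusted p under 0.05, and only Tal1 kept both KO values above all WT values (17.2% of genes after that correction). In KO 3 the differences from the WT mean that remained largest were 1.57 for Mecom, 1.41 for Hlf, 1.36 for Runx1 and 1.20 for Gata2. Under the same correction the log2 fold change of Syncrip, the gene targeted in KO (GC content 37.0%), went from -2.43 to -1.53. Of the 13524 genes, 0 then had an adjusted p under 0.05.

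**Figure D4:**
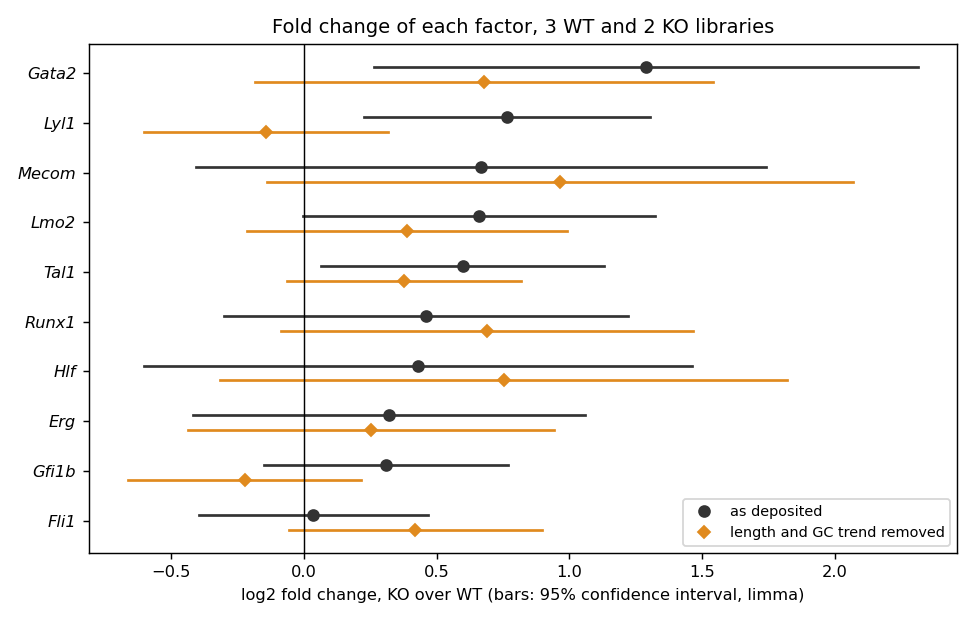
Log2 fold change of KO over WT (x axis) with its 95% confidence interval from limma (bars) for the 10 factors, as deposited (black) and after removal of the trend on GC content and transcript length (orange), from 3 WT and 2 KO libraries. As deposited, the intervals of Gata2, Lyl1 and Tal1 lie above 0, and after the correction every interval spans 0 and Lyl1 and Gfi1b lie at -0.14 and -0.22.

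**Figure D5:**
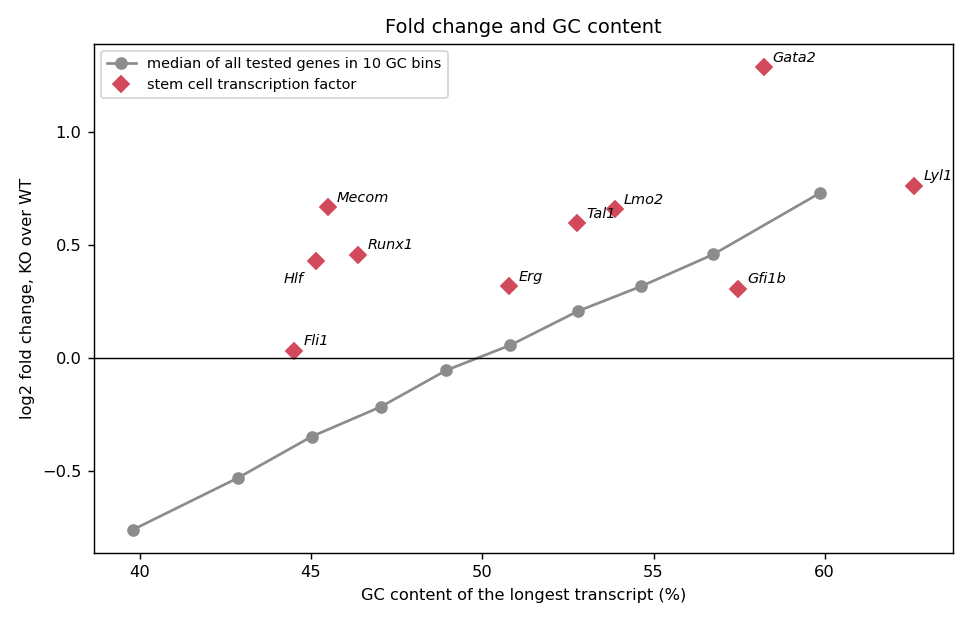
Log2 fold change of KO over WT (y axis) against the GC content of the longest transcript in percent (x axis) for the 10 factors (red diamonds), with the median of all tested genes in 10 bins of GC content (grey points and line). The medians climb from -0.76 to 0.73, Gata2 (1.29) lies well above the line at 58.2%, and Gfi1b (0.31) lies below it at 57.5%.

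The factors are known to act on one another's genes, so their promoters (RefSeq, GRCm38.p6, 250 bases before to 50 after the transcript start) were searched on both strands for the core letters that the families bind. The table of RefSeq promoters used here held 14 for 8 of the 10, and those of Lmo2 and Fli1 were not analysed here. AGATAA, read by GATA factors, was found in 2 of the 14, in Tal1 and Erg, and in 11.2% of all 32851 promoters. TGTGGT, read by RUNX factors, was found in 1, the distal promoter of Runx1, which held it in 2 places (16.8% of all promoters). CCGGAA, read by ETS factors, was found in 3, those of Lyl1 (2 matches), Hlf and the proximal promoter of Runx1 (14.9% of all promoters). CANNTG, the E-box read by helix-loop-helix factors, was found in 8 of the 14 (72.3% of all promoters). The 4 sequences below, each 5′ to 3′ on the strand of the gene, are those of a heptad factor with a GATA match or with 2 RUNX or ETS matches, and capitals mark those matches on either strand. They are Lyl1 at chr8:84701207-84701506 (plus), Runx1 distal at chr16:92826025-92826324 (minus), Tal1 at chr4:115056176-115056475 (plus) and Erg at chr16:95459299-95459598 (minus). A match describes the letters only.
Lyl1: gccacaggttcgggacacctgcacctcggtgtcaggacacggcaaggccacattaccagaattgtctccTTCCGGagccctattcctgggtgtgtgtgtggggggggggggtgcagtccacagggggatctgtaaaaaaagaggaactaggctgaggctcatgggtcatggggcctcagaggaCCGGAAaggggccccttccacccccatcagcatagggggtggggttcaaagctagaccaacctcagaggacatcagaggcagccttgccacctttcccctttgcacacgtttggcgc
Runx1 distal: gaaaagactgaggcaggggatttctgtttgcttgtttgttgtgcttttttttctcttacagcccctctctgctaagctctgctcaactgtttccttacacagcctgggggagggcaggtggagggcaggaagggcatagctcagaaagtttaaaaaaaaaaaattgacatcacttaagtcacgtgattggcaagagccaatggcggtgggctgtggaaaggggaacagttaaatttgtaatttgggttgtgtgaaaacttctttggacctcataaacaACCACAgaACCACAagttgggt
Tal1: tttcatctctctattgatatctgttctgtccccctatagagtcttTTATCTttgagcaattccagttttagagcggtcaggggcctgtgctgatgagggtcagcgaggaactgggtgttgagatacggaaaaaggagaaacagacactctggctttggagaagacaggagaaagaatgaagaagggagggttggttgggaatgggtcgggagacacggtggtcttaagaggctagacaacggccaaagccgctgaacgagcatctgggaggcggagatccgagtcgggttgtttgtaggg
Erg: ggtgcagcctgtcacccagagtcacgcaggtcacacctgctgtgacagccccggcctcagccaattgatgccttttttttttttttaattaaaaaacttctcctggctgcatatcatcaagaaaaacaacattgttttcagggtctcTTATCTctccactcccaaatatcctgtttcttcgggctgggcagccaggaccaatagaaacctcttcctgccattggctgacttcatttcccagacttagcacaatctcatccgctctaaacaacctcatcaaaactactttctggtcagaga

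The GC content of these windows was 60.0% for Lyl1, 45.0% for Runx1 distal, 50.7% for Tal1 and 46.0% for Erg, and the median of all promoters was 52.7%. Lyl1 and Tal1 had both KO values above all WT values, and Runx1 and Erg did not. Gata2 and Gfi1b, whose promoters held no GATA, RUNX or ETS match, also had both KO values above all WT values. After the trend on length and GC content was removed, only Tal1 kept this separation.

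The 10 factors act with cofactors that bridge them to DNA partners or to chromatin enzymes. Of 15 cofactors tested, 9 had a log2 fold change above 0, 5 were higher and 1 lower at an unadjusted p under 0.05, and 0 had an adjusted p under 0.05 by limma, with a median of 0.26. That median was -0.05 in KO 2 and 0.52 in KO 3, and 0.07 after the trend on length and GC content was removed. DESeq2 called 3 higher and 0 lower. For these counts and those of the lists below, the shares over all tested genes were 13.3% higher and 14.5% lower at an unadjusted p under 0.05, 9.27% higher and 9.46% lower by DESeq2, and 23.9% with both KO values above all WT values. Zfpm1, which encodes FOG1, the partner of GATA factors, read 2666, 4468 and 3343 in WT and 7468 and 20105 in KO, both KO values above all WT values. Its log2 fold change came to 1.84 (SE 0.39, limma adjusted p = 0.0815), and 0.61 after the trend on length and GC content was removed. Cbfb, the partner of RUNX1, stood at the other end, with 2500.0, 1692 and 1422 in WT and 1103 and 1567 in KO (-0.47, SE 0.28, limma adjusted p = 0.292), and its value turned to 0.07 after that trend was removed.

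Of 15 paralogs of the factors, 14 were tested, of which 9 had a log2 fold change above 0, with a median of 0.26 (0.02 in KO 2, 0.69 in KO 3, and 0.29 after the trend on length and GC content was removed). At an unadjusted p under 0.05, 4 were higher and 1 lower, 0 passed limma's adjusted p, and DESeq2 called 3 higher and 1 lower. Prdm16, the relative of MECOM that HSCs also need, read 286, 254 and 74.6 in WT and 331 and 820.1 in KO (1.56, SE 0.61, limma adjusted p = 0.148). Ets1, an ETS factor of lymphoid cells, had both KO values below all WT values, with 2085, 3337 and 3079 in WT and 1665 and 1172 in KO (-0.99, SE 0.26, limma adjusted p = 0.082, DESeq2 adjusted p = 0.00729).

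Genes known as targets of the factors included 16 that were tested, and 11 of these had a log2 fold change above 0, with a median of 0.38 (0.03 in KO 2 and 0.68 in KO 3). At an unadjusted p under 0.05, 6 were higher and 0 lower, limma's adjusted p passed for 0, and DESeq2 called 4 higher and 0 lower. Both KO values lay above all WT values for 6 and below them for 1. Besides Zfpm1, which is also a target, the end of the range was marked by Angpt1, the gene of a ligand made by HSCs and niche cells, with 4053, 1995 and 1563 in WT and 1606 and 1792 in KO (-0.46, SE 0.36, limma adjusted p = 0.424). After the trend on length and GC content was removed, the value of Angpt1 turned to 0.30 and the median of the targets was 0.25.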

How the data were processed

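Bulk RNA-seq was available for 5 libraries of sorted mouse HSCs, grouped by the genotype in the labels (3 WT, 2 KO). Libraries were made with the SMART-Seq v4 low-input kit. The authors deposited a table of 24046 genes as normalized signal, in which read counts had been scaled by 1 factor per library. STAR, featureCounts, DESeq2 and mm10 are named in the submitters' processing notes, while versions, annotation and use of strand were not given in the sources used here, so that reads of overlapping antisense genes cannot be told apart. A second deposited table holds the authors' own comparison (fold changes and p-values) and was not used. In each column 100% of values were whole multiples of 1 step (tolerance 0.001 reads), which gave whole reads for edgeR 4.0.16 and DESeq2 1.42.0 as alternatives. Between any 2 libraries, counts differed by more than sampling noise (lowest chi-square over its degrees of freedom 34.3). Without molecular identifiers, reads cannot be taken as independent molecules.

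A value of 10 or more in 2 or more libraries was required, and the 13661 genes that met this were tested with limma 3.58.1 (lmFit and eBayes with trend, R 4.3.3) on log2(value + 1), two-sided, without covariates and with Benjamini-Hochberg adjustment over all of them. Fold changes on this scale understate the change of low genes. Length and GC content came from the longest GENCODE M21 transcript (13524 of 13661 genes matched by symbol, 871 symbols of the table through RefSeq synonyms). The scripts were tested on simulated data. The factors and lists were chosen with earlier results of these data known. All 10 factors are named, and of each other list the genes with the highest and the lowest log2 fold change. Alternatives covered the pseudocount, the filter, scaling, array weights, the tool, the replicate block, length and GC content, and each library left out.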

Additional observations from a re-analysis of the deposited data

How the results depend on the processing

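Precision is limited by 3 WT and 2 KO libraries. Over 160 values (10 factors, 16 alternatives), 151 were above 0. The number of factors with an adjusted p under 0.05 was 0 as reported (3 at an unadjusted p under 0.05). By DESeq2 it was 2, and with WT 1, WT 2 or WT 3 left out it was 0. The number of all genes called was 1 as reported, 2 with a pseudocount of 10, 2 by edgeR and 2279 by DESeq2. It was 0 without the filter (3963 at an unadjusted p under 0.05), 0 under array weights (3328) and 0 after the trend on length and GC content was removed (2336). With each library left out it ran from 0 to 3024, at 0 without any of the WT libraries (2169 to 3055 at an unadjusted p under 0.05), 3024 without KO 2 and 4 without KO 3. The number of factors with both KO values beyond all WT values, 4 as reported, was 2 with quantile normalization and 1 after the trend was removed. It was 6 without WT 1 and 4 without WT 2 or WT 3. Without KO 2 or KO 3 only 1 KO value was left, so the count no longer describes both. KO 3 alone lay above all WT values for 10 factors (40.0% of tested genes). KO 2 alone lay above them for 4 (32.8%) and below them for 2. The median log2 fold change of the factors, 0.53 as reported, ran from 0.14 (without KO 3) to 0.95 (without KO 2). Fli1 turned negative with quantile normalization (-0.011), without WT 3 (-0.0052) and without KO 3 (-0.18). With each library left out, Fli1 ran from -0.18 to 0.25, Runx1 from -0.18 to 1.10 and Hlf from -0.17 to 1.03, each lowest without KO 3 and highest without KO 2. The same held for Gata2 (0.55 to 2.03), Mecom (0.13 to 1.21), Lmo2 (0.16 to 1.16), Erg (0.040 to 0.60) and Tal1 (0.36 to 0.83). Lyl1 ran from 0.65 (without KO 3) to 0.88 (without WT 2), and Gfi1b from 0.15 (without WT 1) to 0.43 (without WT 3). Without WT 3, Hlf stood at 0.072, Mecom at 0.25 and Erg at 0.076, and without WT 1, Hlf stood at 0.79 and Mecom at 1.03. After the trend was removed, Gfi1b (-0.22) and Lyl1 (-0.14) turned negative. The cause of these shifts was not tested.

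The replicate numbers of the labels are shared by WT and KO libraries 2 and 3 only, and nothing ties same-numbered libraries to a shared animal or day. The difference of library 2 from library 3 in WT and that in KO had a correlation of -0.15 across genes. With 1 such difference per group, this value cannot tell whether same-numbered libraries share more than a number. With the replicate block, 6 genes were called and the median of the factors was 0.60, and with the block and the trend removed, 4 genes were called, with Gfi1b at -0.35 and Lyl1 at -0.093. The block called 0 of the 10 factors (lowest adjusted p 0.123).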

Other observations

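Hox, Meis and Pbx genes include homeobox factors that sustain HSC self-renewal. Of 10 tested, 9 had a log2 fold change above 0, with a median of 0.83 (0.79 after the trend on length and GC content was removed), 1 was higher at an unadjusted p under 0.05 (13.3% of all tested genes), 2 had both KO values above all WT values (23.9%) and 0 had an adjusted p under 0.05 by limma, while DESeq2 called 1 higher (9.27%). Hoxa7 read 176, 146 and 84.0 in WT and 206 and 778 in KO (1.62, SE 0.57, limma adjusted p = 0.119, DESeq2 adjusted p = 0.0133). Pbx3 read 159.8, 170.1 and 203 in WT and 77.1 and 241 in KO (-0.37, SE 0.49, limma adjusted p = 0.641), and its value turned to 0.43 after the trend was removed. The median difference from the WT mean was 0.12 in KO 2 and 1.42 in KO 3.

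Of 15 other transcription factors used by HSCs, some of them also among the Hox, Meis and Pbx genes or the paralogs, 10 had a log2 fold change above 0 (median 0.28, with 0.04 in KO 2 and 0.47 in KO 3, and 0.43 after the trend on length and GC content was removed), 3 were higher and 1 lower at an unadjusted p under 0.05, 0 passed limma's adjusted p, and DESeq2 called 2 higher and 0 lower. Hes1, a target of Notch signalling, had both KO values above all WT values at low levels, with 40.8, 17.4 and 39.4 in WT and 105 and 111 in KO (1.79, SE 0.56, limma adjusted p = 0.101). Bmi1, a Polycomb gene required for HSC self-renewal, had both KO values below all WT values, with 792, 468 and 629.9 in WT and 362 and 463 in KO (-0.59, SE 0.29, limma adjusted p = 0.214), and stood at 0.11 after the trend on length and GC content was removed.

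Transcription factors that specify a lineage were split, with 6 of 10 tested above 0 and a median of 0.26 (0.34 in KO 2 and 0.24 in KO 3), which became -0.30 after that trend was removed. Of these, 2 were higher and 1 lower at an unadjusted p under 0.05, and 0 were called by limma or by DESeq2. Gata3 marked the upper end (268, 177 and 84.8 in WT, 220.0 and 753 in KO, log2 fold change 1.35) and Tcf7, a T cell factor, the lower end (48.3, 68.6 and 100.3 in WT, 89.4 and 22.8 in KO, log2 fold change -0.60).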
